A study of Mus musculus with 6 samples.

Results

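GABAergic interneurons are the inhibitory neurons of the hippocampus. They make GABA from glutamate with the enzymes GAD67 and GAD65, load it into synaptic vesicles with the transporter VGAT, and use it to hold pyramidal cells and granule cells in check. They fall into subtypes that are told apart by calcium-binding proteins and neuropeptides. The genes described here are 10 such markers, chosen by symbol from the deposited table. Gad1, Gad2 and Slc32a1 are shared by GABAergic neurons in general, Pvalb and Calb2 encode calcium-binding proteins, Sst, Vip, Npy and Cck encode neuropeptides, and Reln encodes a secreted matrix protein. All 10 were found, once each, among 16060 rows, and all 10 were among the 13321 genes that passed the filter on low values.

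The data are RNA-seq profiles of the hippocampus of C57BL/6 mice, with 3 libraries labelled Control and 3 labelled MA. The study describes adult male mice. Control mice received saline by intraperitoneal injection, and MA mice received methamphetamine at doses that were raised from week to week. The animals were killed after the open field and elevated plus maze tests. The study names the hippocampus as the tissue and describes no sorting of cells for RNA-seq, so fewer cells of a type and less RNA per cell cannot be told apart. How the hippocampus was dissected for RNA-seq is not described. No source used here says whether animals were pooled, and the age in weeks is not given there.

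Levels are on the log2 scale of the deposited table, read as log2 of RPKM plus 1. RPKM scales reads by gene length and by library size. Levels are compared between genes on the assumption that the deposited values keep this scaling. The step that gave all libraries a common distribution is not described. A difference is the mean of the MA libraries minus the mean of the Control libraries on the log2 scale. It understates the change of genes with low values. The tool limma tested each gene in 1 fit over all 13321 genes. A call is a Benjamini-Hochberg adjusted p-value under 0.05. With 3 libraries a group, the smallest two-sided p-value of the exact permutation test is 0.1. The table gives no read totals, and the depth of the libraries is therefore unknown.

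Before the markers are compared, some properties of the libraries need to be given. MA 3 correlated with the other MA libraries at a mean Pearson r of 0.978 across genes, where the other 5 libraries gave 0.984 to 0.993 within their groups. Of 13 choroid plexus markers, 13 lay higher in every MA library than in every Control library and 7 were called. Among those 7, Slc4a5, Aqp1 and Cldn2 passed the filter on low values only through their higher MA levels. The counts of this list are therefore a description and no test. The summed back-transformed level of the 13 markers was 105 to 481 in Control and 1943 to 5334 in the MA libraries. Of 5 blood markers, all 5 lay higher in every MA library and 3 were called. Of all tested genes, 7.32% lay higher in every MA library, and 0.165% were called and higher in MA. All 5 meningeal markers had a positive difference and none was called. Their summed level was 40.0 to 50.9 in Control and 82.2 to 111 in MA, and Igf2 and Dcn differed by 1.26 and 1.30. No gene of these 3 lists was listed at 0 in any library.

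The 6 genes of excitatory hippocampal neurons reported here were all present, which does not by itself identify the region. Slc17a7 and Camk2a, which mark excitatory neurons broadly, had mean levels of 9.16 and 9.37 in Control and 9.23 and 9.43 in MA. Neurod6, Grin2a and Wfs1 were lower in every MA library than in every Control library, with differences of -0.43, -0.35 and -0.30, and Prox1 differed by -0.15. None of the 6 was called, and 3 had an unadjusted limma p-value under 0.05. Of all tested genes, 10.2% were lower in every MA library and 10.4% had an unadjusted p-value under 0.05.

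None of the 10 interneuron markers was called different between the groups by limma, against 0.263% of all tested genes. A single marker, Calb2, had an unadjusted p-value under 0.05, where 10.4% of all tested genes did. It was also the single marker whose groups did not overlap, which held for 17.5% of all tested genes, 7.32% with MA higher, as for Calb2, and 10.2% with MA lower. Differences were positive for 3 markers and negative for 7. Their median was -0.06, and the median over all tested genes was -0.01. The median of the markers was 0.037 without Control 3 and 0.037 without MA 3, where 6 of the 10 differences were positive in each case. The members other than Calb2 had limma adjusted p-values from 0.490 to 0.993.

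**Figure D1:**
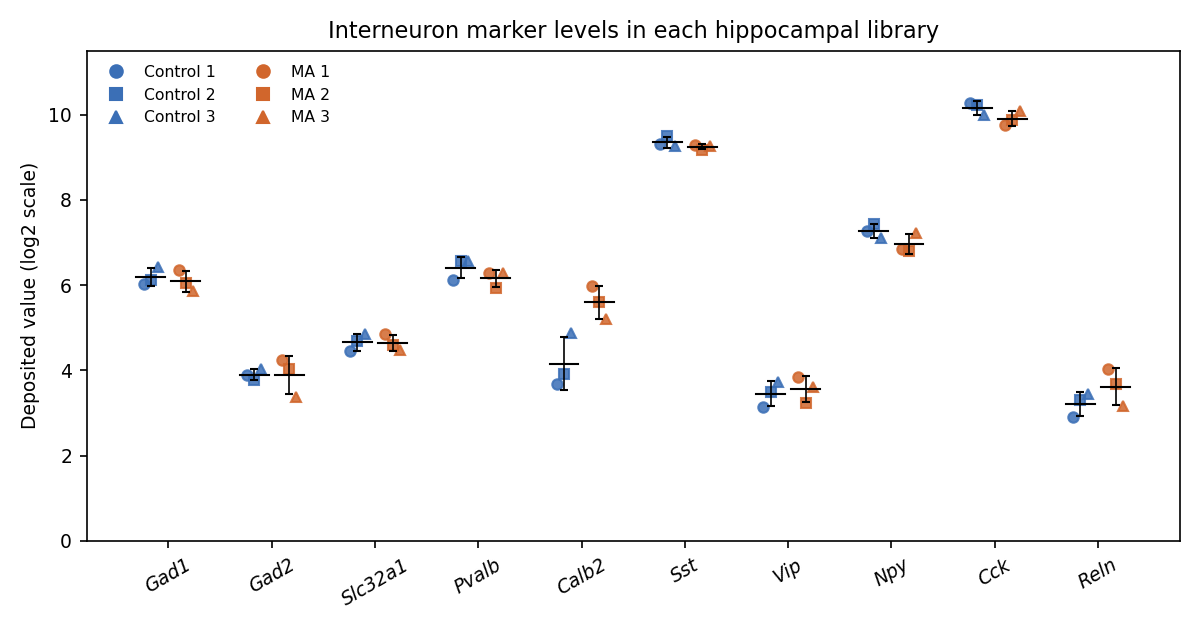
Deposited log2 values of the 10 markers, with 1 symbol for each library (blue Control, orange MA), a black line at the group mean and bars of 1 SD (n = 3). The groups overlap for all markers except Calb2, whose MA libraries sit at 5.21 to 5.98 and whose Control libraries sit at 3.69 to 4.87.

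The levels spanned a wide range. In the Control libraries Cck had the highest mean level at 10.16 and Reln the lowest at 3.22. The order was Cck, Sst, Npy, Pvalb, Gad1, Slc32a1, Calb2, Gad2, Vip and Reln. The Control ranges of Pvalb and Gad1, of Slc32a1 and Calb2, of Calb2 and Gad2, and of Vip and Reln overlapped across libraries. Within libraries Pvalb stood above Gad1, and Vip above Reln, in 3 of 3, while Calb2 stood above Gad2 in 2 of 3. In the MA libraries the order was Cck, Sst, Npy, Pvalb, Gad1, Calb2, Slc32a1, Gad2, Reln and Vip. The MA ranges of Pvalb and Gad1, of Gad1 and Calb2, of Gad2 and Reln, and of Reln and Vip overlapped. Within MA libraries Pvalb stood above Gad1 in only 1 of 3, and Reln above Vip in 2 of 3. Gad1 stood above Calb2, and Gad2 above Reln, in 3 of 3. Calb2 stood above Slc32a1 in 3 of 3 MA libraries, whereas Slc32a1 stood above Calb2 in 2 of 3 Control libraries. Hippocampal pyramidal cells also make Cck mRNA, so its level is not that of interneurons alone.

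The genes shared by GABAergic neurons came first. Gad1 (ENSMUSG00000070880, chromosome 2, 70553072 to 70602014, plus strand) encodes GAD67, the enzyme that makes most of the GABA of the brain. Coordinates here and below are those of GRCm38 and give the location only, since the submitters' processing notes list mm8 and mm9. Gad1 was 6.03, 6.11 and 6.43 in Control 1, 2 and 3, and 6.35, 6.06 and 5.87 in MA 1, 2 and 3. The MA values lay on both sides of the Control mean. The difference was -0.10 (standard error 0.15, 95% interval -0.45 to 0.26, limma adjusted p = 0.880).

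Gad2 (ENSMUSG00000026787, chromosome 2, 22622205 to 22693874, plus strand) encodes GAD65, which is bound to nerve terminals. Its levels were 3.90, 3.77 and 4.02 in Control and 4.24, 4.03 and 3.38 in MA. MA 1 was the highest and MA 3 the lowest of all 6 libraries. The difference was -0.01 (standard error 0.21, 95% interval -0.51 to 0.48, limma adjusted p = 0.993). Without MA 3 the difference was 0.24, with a limma adjusted p of 0.242.

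Slc32a1 (ENSMUSG00000037771, chromosome 2, 158610767 to 158615748, plus strand) encodes VGAT, the vesicular GABA transporter. An annotated gene on the other strand, Gm14205, shares 697 bases of exon with it, and whether the counting used strand is not given in the sources used here. Its levels were 4.45, 4.68 and 4.85 in Control and 4.85, 4.59 and 4.48 in MA. The ranges of the groups nearly coincided. The difference was -0.02 (standard error 0.14, 95% interval -0.34 to 0.30, limma adjusted p = 0.977).

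Taken over the 3 genes, Control averaged 4.92 ± 0.16 on the log2 scale and MA averaged 4.87 ± 0.28 (SD, n = 3 each). Control 3 and MA 1 had the highest values of their groups at 5.10 and 5.15, and MA 3 had the lowest of all at 4.58. The exact permutation test, two-sided, gave p = 1.

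Of the calcium-binding proteins, Calb2 differed most between the groups. Calb2 (ENSMUSG00000003657, chromosome 8, 110137502 to 110168210, minus strand) encodes calretinin, found in interneurons that contact other interneurons. In the mouse its other sources include mossy cells of the dentate hilus, Cajal-Retzius cells and neurons of the midline thalamus. Its levels were 3.69, 3.92 and 4.87 in Control 1, 2 and 3, and 5.98, 5.61 and 5.21 in MA 1, 2 and 3. Each MA library was above each Control library, and Control 3 came closest to the MA group. The means were 4.16 ± 0.62 (SD, n = 3) and 5.60 ± 0.39 (SD, n = 3).

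The Calb2 difference was 1.44, a 2.72-fold higher value on the deposited scale (standard error 0.32, 95% interval 0.69 to 2.19). Its unadjusted limma p was 0.00239 and its adjusted p 0.203, so it was not called. The exact permutation test, two-sided, gave p = 0.1, the smallest this design allows. A difference as large as or larger than that of Calb2 was found for 23 of the 13321 tested genes, Calb2 included. Leaving out single libraries gave differences between 1.21 and 1.80.

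**Figure D2:**
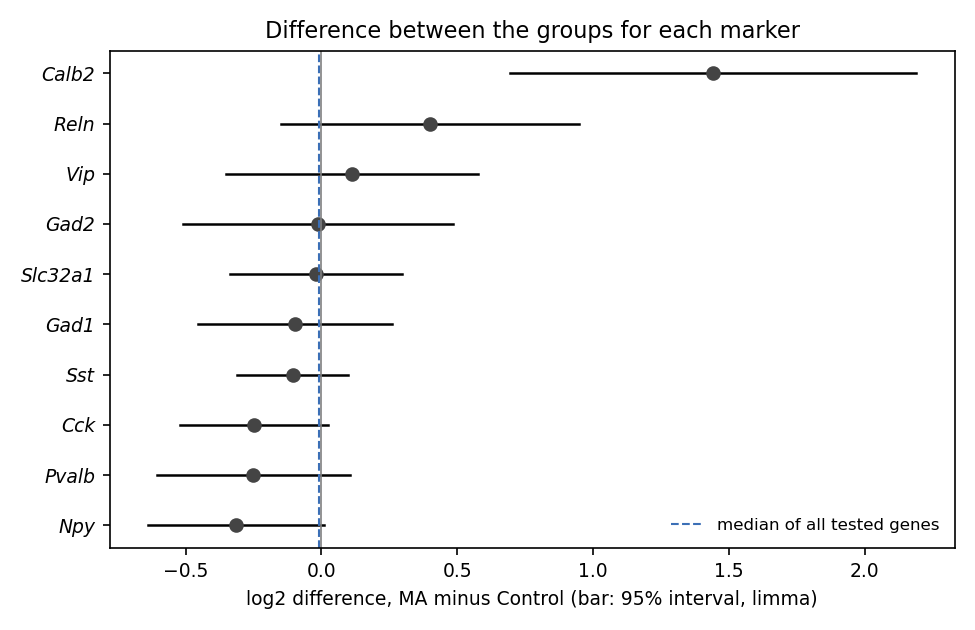
Difference of each marker on the log2 scale, MA minus Control, with the 95% interval from limma (3 libraries a group, not adjusted for the number of genes). The interval of Calb2, 0.69 to 2.19, lies above 0, those of the other 9 markers include 0, and the dashed line is the median of all tested genes, -0.01.

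Markers of the thalamus, of mossy cells and of Cajal-Retzius cells were set beside Calb2. Any further cells that make Calb2 were not examined. All 10 thalamic markers had a positive difference, with a median of 0.58, and none was called or separated the groups. Their summed back-transformed level was 36.8, 34.2 and 45.2 in Control 1, 2 and 3, and 78.6, 90.9 and 31.8 in MA 1, 2 and 3. In this sum MA 1 and MA 2 stood above the Control libraries, and MA 3 stood below all of them. Gene by gene, MA 3 was below every Control library for Plekhg1, Rgs16, Rora and Synpo2. It was within the Control range for Prkcd, Ramp3, Zic1, Tcf7l2, Slc17a6 and Lef1. Prkcd had the highest level of the 10 in Control 1, at 4.01 on the log2 scale. In MA 3 Calb2, at 5.21, was still above each Control library. Without MA 3 the Calb2 difference was 1.64, with a limma adjusted p of 0.065.

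The 4 mossy cell markers summed to 7.87 to 9.44 in Control and to 6.52 to 6.89 in MA. The lower sum came from Nmb, whose mean level was 2.93 in Control and 2.41 in MA. The means of the other 3, Calcrl, Drd2 and Csf2rb2, were higher in MA, at 1.18 and 1.21, 0.52 and 0.78, and 0.32 and 0.40, and only Nmb and Calcrl passed the filter. The 5 Cajal-Retzius markers summed to 2.31 to 3.20 and to 2.61 to 3.04, and Lhx1 was listed at 0 in 1 library. The choroid plexus, blood and meningeal sums separated the groups in the same direction as Calb2. What part these other cells have in the Calb2 difference was not tested.

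**Figure D3:**
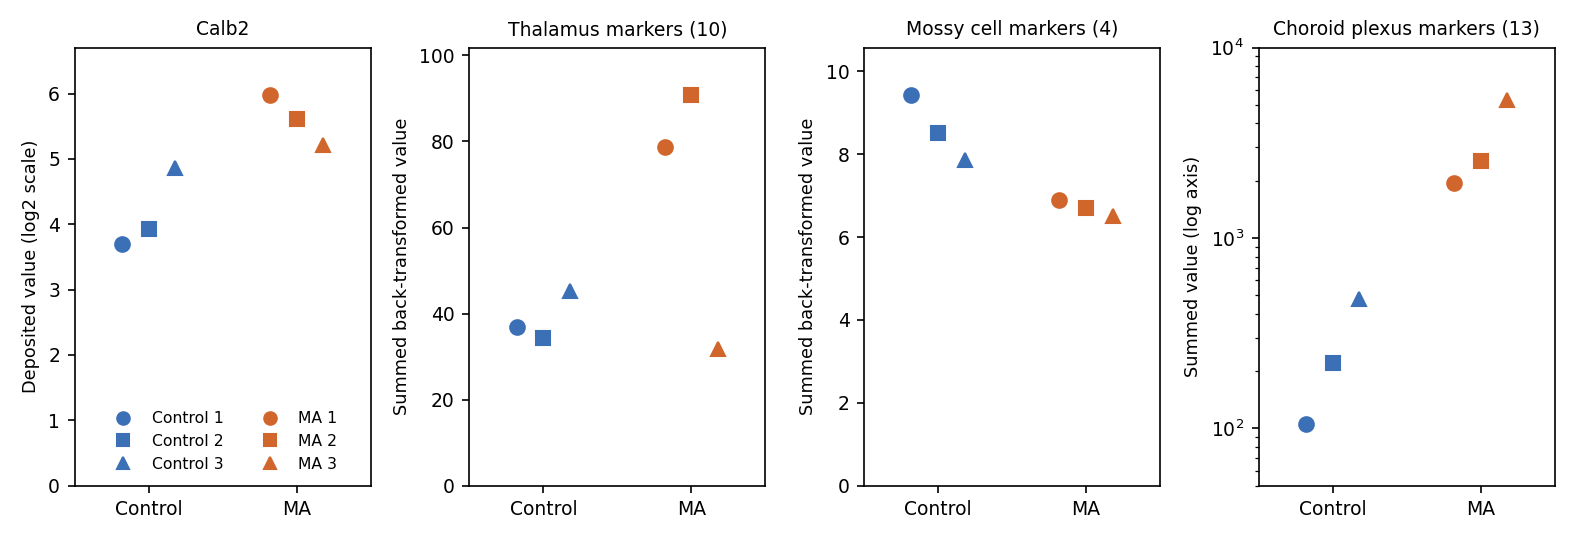
Calb2 (log2 scale) and the summed back-transformed levels of the thalamus, mossy cell and choroid plexus markers in each library (last panel on a log axis). Calb2 is higher in all 3 MA libraries, the thalamic sum in MA 1 and MA 2 but not in MA 3, the mossy cell sum is lower in the MA libraries through Nmb, 1 of its 4 genes, and the choroid plexus sum is higher in all 3.

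Pvalb (ENSMUSG00000005716, chromosome 15, 78191114 to 78206400, minus strand) encodes parvalbumin, the calcium buffer of fast-spiking basket and chandelier cells. Its levels were 6.12, 6.57 and 6.56 in Control and 6.28, 5.93 and 6.28 in MA. Control 2 and Control 3 were above all MA libraries, while Control 1 was below MA 1 and MA 3. The difference was -0.25 (standard error 0.15, 95% interval -0.61 to 0.10, limma adjusted p = 0.626).

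Among the neuropeptides, Npy had the largest difference. Npy (ENSMUSG00000029819, chromosome 6, 49822710 to 49829507, plus strand) encodes neuropeptide Y, which dampens glutamate release and is made by several interneuron subtypes, neurogliaform and hilar cells among them. Its levels were 7.27, 7.44 and 7.10 in Control and 6.85, 6.79 and 7.22 in MA. MA 1 and MA 2 were below all Control libraries, and MA 3 was within their range. The difference was -0.31 (standard error 0.14, 95% interval -0.64 to 0.01, limma adjusted p = 0.490). When limma gave each library a quality weight, the difference was -0.47 and the adjusted p 0.047. Under that setting 4.4% of all tested genes were called, and Calb2 was called too, with a difference of 1.55 and an adjusted p of 0.031. Over all 15 alternatives the adjusted p of Npy ranged from 0.047 to 0.876 and that of Calb2 from 0.031 to 0.629.

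Cck (ENSMUSG00000032532, chromosome 9, 121489824 to 121495694, minus strand) encodes cholecystokinin, the peptide of a class of basket cells that also carry cannabinoid receptors. Its levels were 10.27, 10.22 and 9.98 in Control and 9.76, 9.87 and 10.10 in MA. MA 3 was above Control 3, and the other MA libraries were below all Control libraries. The part of the excitatory genes given above in this value was not tested. The difference was -0.25 (standard error 0.12, 95% interval -0.52 to 0.02, limma adjusted p = 0.521).

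Sst (ENSMUSG00000004366, chromosome 16, 23889573 to 23890958, minus strand) encodes somatostatin, made by interneurons that contact the distal dendrites of pyramidal cells. Its levels were 9.30, 9.50 and 9.26 in Control and 9.30, 9.18 and 9.27 in MA. It was the steadiest of the 10 markers, with a range of 0.32 over all 6 libraries. The difference was -0.11 (standard error 0.09, 95% interval -0.31 to 0.10, limma adjusted p = 0.733).

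Vip (ENSMUSG00000019772, chromosome 10, 5639218 to 5647617, plus strand) encodes vasoactive intestinal peptide, a marker of interneurons that inhibit other interneurons. Its levels were 3.14, 3.49 and 3.74 in Control and 3.85, 3.24 and 3.61 in MA. The groups overlapped over most of their ranges. The difference was 0.11 (standard error 0.20, 95% interval -0.35 to 0.58, limma adjusted p = 0.900).

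Reln (ENSMUSG00000042453, chromosome 5, 21884454 to 22344702, minus strand) encodes reelin, which guides neuronal layering in development and is made in the adult by interneurons and by Cajal-Retzius cells. Its levels were 2.91, 3.31 and 3.44 in Control and 4.03, 3.67 and 3.15 in MA. MA 1 and MA 2 were above all Control libraries and MA 3 was within their range. The difference was 0.40 (standard error 0.24, 95% interval -0.15 to 0.95, limma adjusted p = 0.618). A gene on the other strand, Gm10475, shares 246 bases of exon with Reln.

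The libraries of a group differed from each other in several markers at once. MA 1 was the highest MA library for 7 of the 10 markers. MA 3 was the lowest for Gad1, Gad2, Slc32a1, Calb2 and Reln and the highest for Pvalb, Npy and Cck. Among the Control libraries, Control 3 was the highest for Gad1, Gad2, Slc32a1, Calb2, Vip and Reln and the lowest for Sst, Npy and Cck. Annotated exons cover 1041 bases in Pvalb, 566 in Npy and 1305 in Cck. In the 5 markers that were lowest in MA 3 they cover from 1743 bases in Calb2 to 23738 in Reln. Sst, with 721 bases, was not the highest in MA 3, and Vip, with 3402, was not the lowest there. The part of transcript length was not tested.

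Each subtype marker was also set against the mean log2 level of Gad1, Gad2 and Slc32a1 in the same library. For Calb2 this relative level was -1.10, -0.93 and -0.23 in Control 1, 2 and 3, and 0.84, 0.72 and 0.63 in MA 1, 2 and 3. Every MA library was above every Control library, and the SD of the MA libraries was 0.10. The difference was 1.48. For Reln the relative level was -1.89, -1.54 and -1.66 in Control and -1.12, -1.22 and -1.42 in MA. These groups did not overlap either, and the difference was 0.44. On its own values Reln did overlap, with MA 3 at 3.15. In MA 3 the mean of the shared genes was the lowest of all 6 libraries, at 4.58. No share over all tested genes was computed on this relative scale. For both genes the exact permutation test, two-sided, gave p = 0.1, or 0.35 after Benjamini-Hochberg adjustment over the 7 markers.

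The relative levels of Pvalb, Sst, Vip, Npy and Cck overlapped between the groups. Their differences were -0.21, -0.06, 0.16, -0.27 and -0.21, with exact permutation p-values from 0.4 to 0.9. For each of them the MA libraries spread more widely on this scale than on their own values. In the same order, the MA SDs were 0.36, 0.28, 0.34, 0.50 and 0.46 on this scale. On their own values they were 0.20, 0.06, 0.31, 0.23 and 0.17. MA 3 had the highest relative level of all 6 libraries for Sst, Vip, Npy and Cck, and Control 2 had it for Pvalb.

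**Figure D4:**
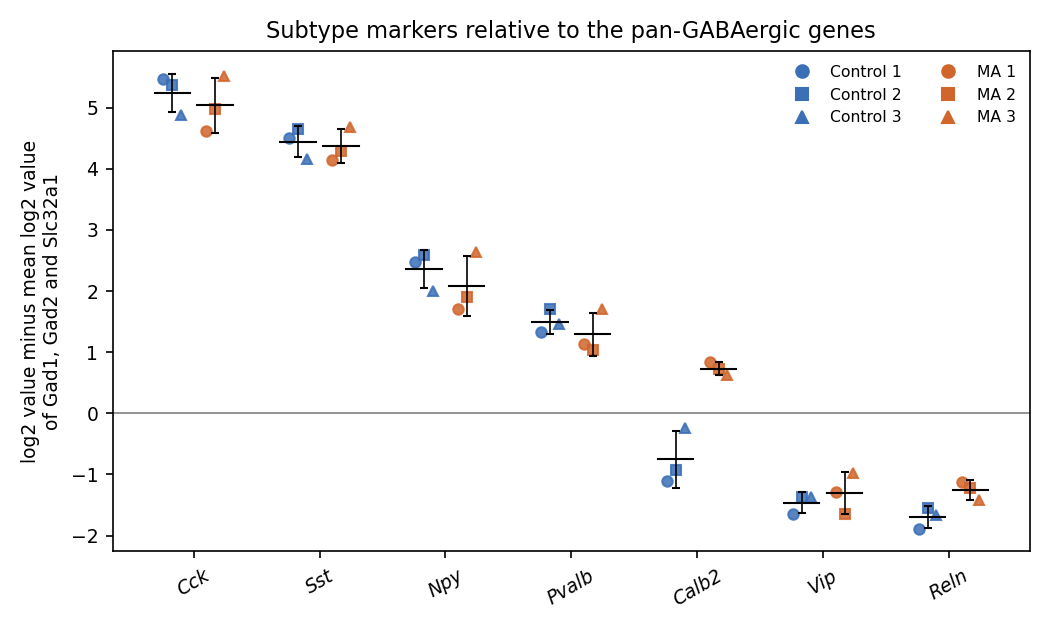
Log2 level of each subtype marker minus the mean log2 level of Gad1, Gad2 and Slc32a1 in the same library, with the group mean as a line and 1 SD as bars (n = 3). Calb2 and Reln are the markers whose groups do not overlap on this scale, with differences of 1.48 and 0.44, and Reln overlaps on its own values.

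Other genes of GABAergic transmission and interneuron identity were taken from 6 lists, of which 77 of 83 genes were tested. None was called by limma, and 3 had an unadjusted p-value under 0.05, beside 10.4% of all tested genes. The groups did not overlap for 7 of the 77, with 2 higher and 5 lower in MA, beside 17.5% of all tested genes. The differences had a median of -0.01, with 35 above 0 and 42 below.

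In the list of GABA synthesis, uptake and breakdown, 6 genes were tested, 4 with a difference above 0 and 2 below, with a median of 0.21. Slc6a13, a GABA transporter of the meninges and liver, was 2.06 ± 0.15 in Control and 2.27 ± 0.17 in MA (SD, n = 3 each). It is also in the list of meningeal markers. Its groups overlapped.

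Of 15 tested lineage transcription factors, 5 had a difference above 0 and 10 below, with a median of -0.13. Nr2f2 encodes COUP-TFII, a factor of interneurons from the caudal ganglionic eminence that is also made by venous endothelium. It was 2.68 ± 0.32 in Control and 3.56 ± 0.32 in MA (SD, n = 3 each), and its groups did not overlap. The difference was 0.88 (standard error 0.21, limma adjusted p = 0.219). Without MA 3, where 257 genes were called, Nr2f2 was among the calls. The 4 endothelial markers also had positive differences, with a summed level of 53.2 to 58.2 in Control and 62.5 to 88.3 in the MA libraries. Their part in the Nr2f2 value was not tested. Dlx1, needed for interneurons to form and survive, was 3.97 ± 0.03 and 3.73 ± 0.21 (SD, n = 3 each), a difference of -0.24 with a limma adjusted p of 0.545.

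The 22 tested subtype markers outside the 10 had a median difference of -0.0031. Crhbp encodes the binding protein of corticotropin-releasing hormone, which is found in Sst cells. It was 3.48 ± 0.21 and 3.15 ± 0.16 (SD, n = 3 each), and each MA library was below each Control library (limma adjusted p = 0.466). Kit, a receptor tyrosine kinase, had a difference of 0.36 and a limma adjusted p of 0.502.

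Receptors for the peptides and for reelin had a median difference of 0.02 over 14 tested genes. Npy5r, a neuropeptide Y receptor, was 1.83 ± 0.19 in Control and 1.53 ± 0.13 in MA (SD, n = 3 each), with a limma adjusted p of 0.497. Dab1, the adaptor that carries the reelin signal inside the cell, was 4.77 ± 0.04 and 4.59 ± 0.10 (SD, n = 3 each). Its groups did not overlap, and its limma adjusted p was 0.535.

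The 13 genes of peptide processing and dense-core vesicles had a median difference of -0.04. Vgf and Chgb, which encode granins of these vesicles, differed by -0.19 and -0.17 (limma adjusted p = 0.578 and 0.590). For the perineuronal net, the matrix that wraps many Pvalb cells, 7 genes were tested, of which 3 had a positive difference, with a median of -0.07. Hapln1, a link protein of that matrix, was 2.37 ± 0.06 in Control and 1.98 ± 0.16 in MA (SD, n = 3 each). Its groups did not overlap. The difference was -0.39 (standard error 0.12, limma adjusted p = 0.321). Ncan, a proteoglycan of the same matrix, had a difference of -0.17 and a limma adjusted p of 0.519. Bcan, a related proteoglycan named here after its values were seen, was higher in every MA library, with a difference of 0.14 and a limma adjusted p of 0.566.

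Genes whose profile over the 6 libraries was most like that of the markers were sought as a description. Likeness was the root mean square difference of log2 values after centring on the 6-library mean, among genes that varied at least as much. For the mean of Gad1, Gad2 and Slc32a1 the nearest of 4256 genes were Sc5d, Sesn3, Acsl3, Hecw1 and Wbp11, at 0.031 to 0.048. For Calb2, the marker that varied most, the nearest of 43 genes were Mfrp, H2afy, Aqp1, Enpp2 and Folr1, at 0.41 to 0.58. Aqp1, Enpp2 and Folr1 belong to the list of choroid plexus markers given above. The 43 genes were those with an SD of at least 0.92, the SD of Calb2 over the 6 libraries. Choroid plexus genes could reach that SD through their higher MA levels alone. How many of the 43 were such genes was not counted, so these neighbours are no test.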

How the data were processed

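According to the study's methods, Hisat2 was the aligner of the paired-end reads and featureCounts the counter, and the authors turned the counts into FPKM. The submitters' processing notes list Bowtie 0.12.2 and the builds mm8 and mm9 instead, with no role given. The annotation is not given in the sources used here. The deposited table is named RPKM, but its values are on a log2 scale, with an offset of 1 inferred from the lowest value of 0, and the same highest value of 12.3 in all 6 libraries. The log step and the common distribution are not described. Counts could not be recovered.

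Genes whose value was 0.5 or more after back-transformation in 3 or more libraries were tested with limma 3.58.1 in R 4.3.3 (eBayes with a trend, no covariate), MA minus Control, with Benjamini-Hochberg adjustment. Single values had an exact permutation test. Named genes were all 10 markers, from each related list the called genes or else the 2 with the smallest p, and the 5 nearest genes by likeness. Some genes of these lists are not reported here. Markers and lists were chosen with earlier results of these data known. Lists of astrocyte, oligodendrocyte, microglia and striatal genes were also run: none of their genes was called, and their median differences were -0.16, -0.05, -0.10 and 0.12. Locations come from GENCODE M21. The numbers of same-numbered libraries come from the labels, which do not state pairing. The p-values set the group difference against the variation between these libraries. In limma the variance of each gene is moderated with that of all tested genes.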

Additional observations from a re-analysis of the deposited data

How the results depend on the processing

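Each of 15 alternatives was compared with the reported values. Over all tested genes the 35 calls became 3 with no filter, 20 with a minimum mean of 5, 15 with the replicate block, 586 with sample quality weights, and 0 to 257 when 1 library was left out. Sample quality weights called 2 of the 10 markers, Calb2 (1.55) and Npy (-0.47), and 3 related genes, Hapln1, Nr2f2 and Sstr1. The other 14 alternatives called none of the 10. The related genes called numbered 0 to 3 with 1 library left out, the 3 being Kcnc2, Nr2f2 and Sstr1 without MA 3. The cause was not tested. The weights also turned the sign of Gad2 (0.17) and Vip (-0.048). With 1 library left out, differences ranged from -0.23 to 0.023 for Gad1, -0.19 to 0.24 for Gad2, -0.12 to 0.073 for Slc32a1 and -0.044 to 0.27 for Vip. Relative to the shared GABAergic genes they ranged from -0.22 to 0.050 for Sst, -0.45 to 0.0074 for Cck and -0.012 to 0.33 for Vip. Calb2, Reln, Npy, Cck, Pvalb and Sst kept the sign of their own difference in all 15 alternatives. Some of these could not change it. With no filter, a minimum mean of 5, eBayes without a trend or the replicate block, the difference stays the same by construction. With 1 library left out, Reln ranged from 0.19 to 0.63, Pvalb from -0.40 to -0.14, Sst from -0.15 to -0.03, Npy from -0.45 to -0.23, Cck from -0.34 to -0.17, relative Npy from -0.55 to -0.08, relative Pvalb from -0.41 to -0.08, and the median of the 10 from -0.15 to 0.037. Between Control and MA libraries sharing a number, the correlations of deviations were -0.197, -0.242 and -0.337, none of them positive. Whether the samples were paired stays unknown, because such correlations from 3 libraries a group cannot decide it. With the replicate block the adjusted p of Calb2 was 0.521, and no marker was called. Depth is unknown, so its limit on low genes could not be given.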
